A study of Drosophila melanogaster with 5 samples.

Results

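A set of 10 genes that drive or brake the cell cycle, or that are needed to copy DNA, was followed through nuclei of the Malpighian tubules (MTs), the fly kidney. They were chosen by name, as 10 of the 16495 genes of the deposited table, and all 10 were found. They fall into 5 mitotic genes (CycA, CycB, Cdk1, stg and polo) and 5 genes of the G1/S step and of the endocycle (CycE, E2f1, PCNA, dup and dap). The study asked how a gut tumor that sends the PDGF/VEGF-like ligand Pvf1 disturbs the MTs, and what its receptor Pvr does in principal cells (PCs), the main secretory cells of the MT.

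Nuclei were isolated from 90 pairs of MTs of female flies for each of 5 libraries, with 1 library per genotype. EGT > yki act (Yki flies) carried esg-GAL4 and tub-GAL80TS with UAS-GFP and UAS-yki3SA, and EGT > w1118 carried the same driver and UAS-GFP without the yki transgene. PCts > Pvr act carried CG31272-GAL4 and tub-GAL80TS with UAS-Pvr act, a library with the label PCts > Pvr RNAi (below, the Pvr RNAi-labelled library) carried UAS-Pvr RNAi with this driver, and PCts > w1118 carried the driver alone. All libraries thus share a temperature-sensitive GAL80, and the flies were shifted to 29 °C to switch the driver on, for a time that the labels state as 8 days under treatment but as 5 days among the sample traits. The driver esg-GAL4 is active in gut progenitors and also in renal stem cells (RSCs), whereas CG31272-GAL4 is active in PCs. With no replicate library, no test between genotypes was possible. Flies, preparation and genotype cannot be told apart.

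Mitotic cells and endocycling cells use part of the same machinery. Cyclin E with its kinase starts S phase in both, whereas the mitotic cyclins CycA and CycB, their kinase Cdk1, the phosphatase String that switches Cdk1 on and the kinase Polo are needed to enter and pass mitosis. Endocycling cells copy their DNA again without dividing, and mitotic genes are then silent. In the adult MT, PCs are large polyploid cells, and the small diploid RSCs of the lower tubule and ureter are the cells that can divide.

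The deposited values were turned back into counts of unique molecular identifiers (UMIs). Levels are given as counts per 1000000 UMIs of the pooled nuclei (CPM), with exact Poisson 95% intervals, and log2 ratios with exact conditional binomial 95% intervals. These intervals cover counting error only. The libraries held between 1969 and 9367 nuclei and between 10018765 and 39154127 UMIs, with medians between 1515.5 and 3889 UMIs per nucleus. Of 21318 barcode sequences, 53 occurred in 2 libraries. Pvr stood at 2913 CPM in PCts > Pvr act and 629 in the Pvr RNAi-labelled library, against 711 in PCts > w1118, so that the transcript was only slightly lower in the Pvr RNAi-labelled library. The gene yki stood at 33.3 in EGT > yki act against 32.5 in EGT > w1118, and the table has no separate feature for the transgene. The median of all genes was displaced by 0.33 on the log2 scale in PCts > Pvr act, by 0.13 in EGT > yki act and by 0.032 in the Pvr RNAi-labelled library, and ratios below are to be read against these shifts.

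The UMIs of the 10 genes were very unequal. E2f1 (FBgn0011766, chr3R:21620304-21660871, minus strand, BDGP6.54) gave 60195 UMIs, or 87.2% of all UMIs of the 10. The other genes of its group gave 3374 (dap), 2147 (CycE), 1192 (dup) and 436 (PCNA). CycE lies at chr2L:15727581-15748150 on the minus strand, and PCNA, dup and dap lie on chromosome arm 2R. Among the mitotic genes, stg (FBgn0003525, chr3R:29251826-29255800, minus strand) gave 989 UMIs and CycB 381, followed by CycA with 202, Cdk1 with 69 and polo with 65. CycA lies at chr3L:11826719-11833578 (minus strand), Cdk1 at chr2L:10384739-10386262 (minus strand), polo at chr3L:20309654-20313466 (plus strand) and CycB on 2R. The version of Cell Ranger that the authors used counts reads in introns by default, and E2f1 spans 40568 bases and CycE 20570 against 1130 for PCNA. Levels are therefore compared between libraries and cell types only, never between genes.

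Mitotic genes stood out in 1 library. The summed level of the 5 mitotic genes was 34.3 CPM in PCts > Pvr act, against 4.53 in PCts > w1118 (log2 ratio 2.92, 95% interval 2.56 to 3.30). The other libraries had 9.08 (Pvr RNAi-labelled library), 6.70 (EGT > yki act) and 5.84 (EGT > w1118). The sum of the G1/S and endocycle genes went the other way in these nuclei, with 636 CPM in PCts > Pvr act against 893 in PCts > w1118 (log2 ratio -0.49, 95% interval -0.52 to -0.46). That second ratio depends on how nuclei are weighted: with the mean over nuclei in place of the pooled count it was 0.00020.

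**Figure D1:**
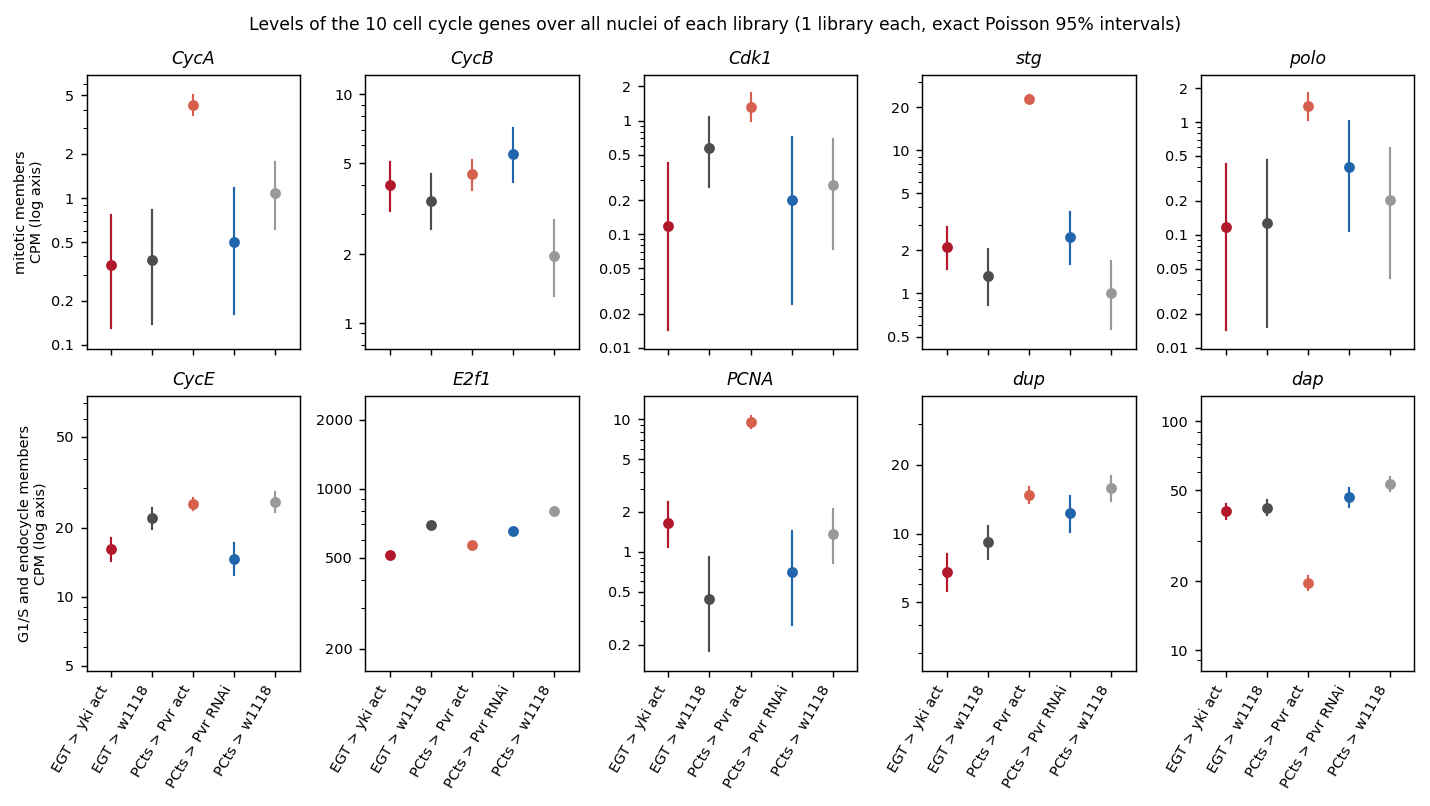
Levels of the 10 genes in CPM over all nuclei of a library (log axes, 1 point per library, bars are exact Poisson 95% intervals), with the mitotic genes above and the G1/S and endocycle genes below. PCts > Pvr act is the highest library for CycA, Cdk1, stg, polo and PCNA and the lowest for dap.

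stg encodes String, the Cdc25-type phosphatase that removes the inhibitory phosphate from Cdk1 at the entry into mitosis. It was counted 892 times in PCts > Pvr act (22.8 CPM) and 15 times in PCts > w1118 (1.01), a log2 ratio of 4.49 (95% interval 3.76 to 5.33). It had 36 UMIs in EGT > yki act (2.12), 21 in EGT > w1118 (1.33) and 25 in the Pvr RNAi-labelled library (2.50). Of the nuclei of PCts > Pvr act, 645 (6.89%) held a stg UMI, against 14 (0.464%) in PCts > w1118. Nuclei annotated as tracheal, muscle or fat body cells, which lie outside the MT, held one in 1.42% (4 of 281) in PCts > Pvr act, at a median depth of 1497 UMIs against 2295 in the whole library. Their stg level was 14.1 CPM (8 UMIs, 95% interval 6.11 to 27.9), an interval that includes the 22.8 of the library. Without stg, the mitotic sum was still higher, with 11.5 CPM in PCts > Pvr act against 3.52 in PCts > w1118 (log2 ratio 1.71).

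The mitotic cyclins and their kinase were rarer. CycA, which acts in S phase and early mitosis, had 169 UMIs in PCts > Pvr act (4.32 CPM) against 16 in PCts > w1118 (1.08), a log2 ratio of 2.0 (95% interval 1.25 to 2.84). CycB, the main partner of Cdk1 in mitosis, had 175 (4.47) against 29 (1.96), a log2 ratio of 1.19 (0.62 to 1.81). Cdk1 itself had 52 (1.33) against 4 (0.271), a log2 ratio of 2.30 (0.85 to 4.22). polo, a mitotic kinase of centrosomes and kinetochores, had 54 (1.38) against 3 (0.203), a log2 ratio of 2.76 (1.14 to 5.09). Each of the 5 mitotic genes was thus higher in PCts > Pvr act by more than 1 on the log2 scale. Of all 9173 genes with at least 50 UMIs over both libraries, 29.8% were higher by as much and 16.4% lower. All 5 mitotic genes had fewer than 50 UMIs in PCts > w1118, from 3 (polo) to 29 (CycB). They reached this minimum only through PCts > Pvr act. Their place past the limit is therefore not read as support. Of the 5 G1/S and endocycle genes, PCNA was higher by as much, dap was lower, and CycE, E2f1 and dup were neither. PCNA also reached the minimum only through PCts > Pvr act. Against the other control library, EGT > w1118, CycB differed little, with 4.47 CPM in PCts > Pvr act against 3.43 in EGT > w1118 (log2 ratio 0.38, -0.066 to 0.85), and it stood at 5.49 in the Pvr RNAi-labelled library.

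PCNA, the sliding clamp of the replication fork, had 374 UMIs in PCts > Pvr act (9.55 CPM) against 20 in PCts > w1118 (1.35), a log2 ratio of 2.82 (95% interval 2.17 to 3.55). CycE was nearly level, with 25.4 CPM in PCts > Pvr act against 26.0 in PCts > w1118 (log2 ratio -0.035, -0.21 to 0.14). The same held for dup, the Cdt1 protein that licenses replication origins, with 14.7 against 15.8 (log2 ratio -0.097, -0.32 to 0.13). Relative to the median gene of this comparison both lie lower. E2f1, the activator of S-phase genes, was lower, with 567 CPM in PCts > Pvr act against 796 in PCts > w1118 (log2 ratio -0.49, -0.52 to -0.46). dap, which encodes Dacapo, the p21/p27-type inhibitor of Cyclin E with Cdk2, had the lowest ratio of the 10, with 19.6 against 53.4 (log2 ratio -1.44, -1.59 to -1.30).

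These ratios compare nuclei of different annotation. The annotation, made on all libraries together, put 96.0% of the nuclei of PCts > Pvr act into 5 cell types named after Pvr act, which hold at most 3 nuclei each of PCts > w1118. Only lower ureter PCs, adult tracheal cells and visceral muscle had at least 20 nuclei in both libraries. E2f1 was higher in PCts > Pvr act in all 3, with 860 CPM in lower ureter PCs against 455 in PCts > w1118 (log2 ratio 0.92, 95% interval 0.35 to 1.53), while the intervals of the other types included 0. With equal weight for each of these 3 types, the ratios of dap and CycB turned round to 1.45 and -1.81. The levels over all nuclei and the shift in annotated cell types therefore cannot be told apart.

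Within PCts > Pvr act, 4 of the 5 mitotic genes, all but stg, were most concentrated in nuclei annotated as renal stem cells 2 (Pvr-act). These 690 nuclei carried 1.61% of the UMIs of the library and 11.7% of the UMIs of the mitotic genes. Their mitotic sum was 249 CPM (95% interval 211 to 291), against 28.3 in RSCs (Pvr-act), 27.9 in lower segment PCs (Pvr-act) and 21.4 in lower tubule PCs (Pvr-act). In lower segment PCs 2 (Pvr-act) the sum was higher still, at 398 CPM, of which stg made up 220 of 226 UMIs. The tracheal, muscle and fat body nuclei of the same library, which serve as a background for RNA from other nuclei, stood at 24.8 (13.5 to 41.5, from 14 UMIs), and those of PCts > w1118 at 21.0 (2.55 to 75.9, from 2 UMIs). The level in RSCs (Pvr-act), lower segment PCs (Pvr-act) and lower tubule PCs (Pvr-act) thus lay within the interval of that background and is not read as expression above it. That interval rests on 14 UMIs, and RNA outside nuclei was not measured, so lying within it does not show that expression is absent. Whether the tracheal, muscle and fat body nuclei express these genes themselves was not tested. RSCs 2 (Pvr-act) and lower segment PCs 2 (Pvr-act) lay above that interval. The RSC markers N and Dl stood at 1365 and 1392 CPM in RSCs 2 (Pvr-act), and the PC marker ct at 4234. No other type is set beside these levels, so they do not settle what these nuclei are. The RSC marker esg could not be looked up by name, so its level is not given.

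**Figure D2:**
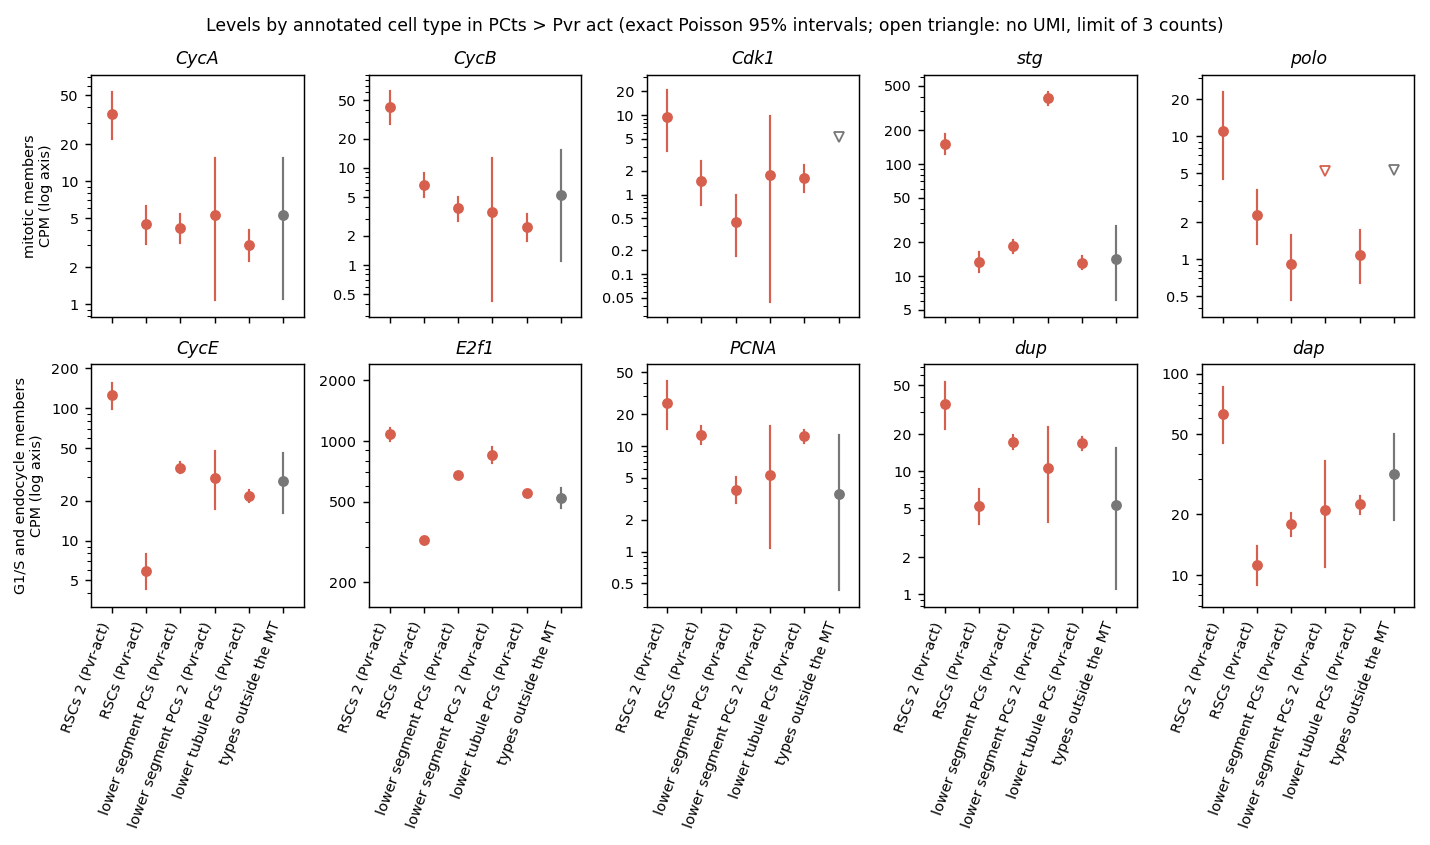
Levels of the 10 genes in CPM (log axes) in the 5 largest cell types of PCts > Pvr act and in the types outside the MT, with exact Poisson 95% intervals and open triangles at the limit that 3 UMIs would give where none was counted. RSCs 2 (Pvr-act) are the highest of the 5 for every gene but stg, which is highest in lower segment PCs 2 (Pvr-act).

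Gene by gene, RSCs 2 (Pvr-act) had CycA at 34.9 CPM, against 5.30 in the types outside the MT of the same library. CycB stood at 42.8 against 5.30, and stg at 151 against 14.1. Cdk1 (9.51, from 6 UMIs) and polo (11.1, from 7 UMIs) had no UMI in the types outside the MT, where 0 UMIs allow up to 5.30 CPM. CycE was at 125 CPM against 28.3, dup at 34.9 against 5.30 and E2f1 at 1081 against 525. Both groups of genes were thus high in the same cell type, as sums over its nuclei and not within single nuclei. These nuclei were also shallow, with a median of 768 UMIs against 2295 in the library. The 9 genes that were highest there make 90.0% of the 10, where 26.7% of 8621 genes with at least 50 UMIs were highest in that type.

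The same annotation held a few nuclei of other libraries. RSCs 2 (Pvr-act) had 27 nuclei in EGT > yki act and 100 in EGT > w1118, and the mitotic sum was 181 and 182 CPM there, from 3 and 8 UMIs. The log2 ratio of PCts > Pvr act (249) over EGT > w1118 was 0.46 (95% interval -0.56 to 1.69), an interval that leaves the direction undetermined. CycA, CycB, Cdk1 and stg had 3, 3, 1 and 1 UMIs in the 100 nuclei of EGT > w1118, CycE had 1, and PCNA, dup and polo had 0. E2f1 differed more, with 1081 CPM in PCts > Pvr act against 431 in EGT > w1118 (log2 ratio 1.33, 0.67 to 2.07). High mitotic levels in this cell type were thus also counted in flies without Pvr act, on very few UMIs.

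RSCs of the usual annotation had far lower mitotic levels. Their mitotic sum was 46.3 CPM in the Pvr RNAi-labelled library (21 UMIs), against 25.1 in PCts > w1118 (25 UMIs), and 14.2 in EGT > w1118 (25 UMIs). EGT > yki act had 30 such nuclei and no mitotic UMI. CycA was counted 4 times in the Pvr RNAi-labelled library, 9 times in PCts > w1118 and once in EGT > w1118. The RSC sum of 25.1 in PCts > w1118 lay within the interval of the types outside the MT of that library. That interval (2.55 to 75.9 CPM) rests on 2 UMIs and is too wide to decide whether RSCs lie above background. The RSC sum is therefore not read as expression above it. Without stg, RSCs of PCts > w1118 stood at 20.1 CPM (12.3 to 31.0) and its main segment PCs at 0.680 (0.221 to 1.59). Main segment PCs, which are polyploid, gave between 0.654 and 5.74 mitotic CPM across 4 libraries.

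stg followed another cell type. In nuclei annotated as lower segment principal cells 2 (Pvr-act), stg stood at 387 CPM in PCts > Pvr act (95% interval 338 to 442, 220 UMIs in 163 of 725 nuclei). CycA, CycB and Cdk1 had 3, 2 and 1 UMIs in these nuclei, polo had 0, and their PCNA level was 5.28. stg was thus high there without the other 4 mitotic genes. The hemocyte markers Hml, Ppn and NimC1 stood at 3182, 6385 and 463 CPM in the same nuclei, He at 15.8, and the PC marker ct at 1697. All 4 hemocyte markers were detected, with a summed level of 10046 CPM, against a range of 120 to 1103 in the other 4 large types of the library and 1.22 over all nuclei of PCts > w1118. The annotation as PCs therefore goes against these markers, and the part of blood cells in the stg level was not tested.

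**Figure D3:**
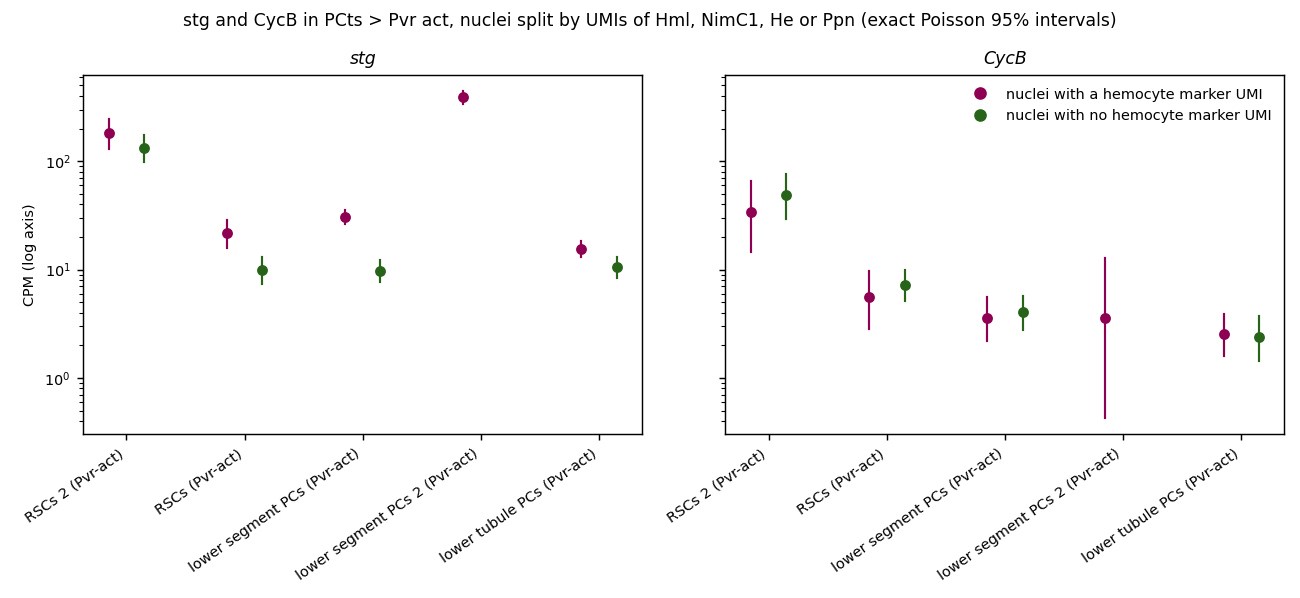
CPM (log axis) of stg and CycB in the 5 largest cell types of PCts > Pvr act, for nuclei with and without a UMI of Hml, NimC1, He or Ppn, with exact Poisson 95% intervals. stg is higher in nuclei with such a UMI in lower segment PCs (Pvr-act) and RSCs (Pvr-act), CycB is not, and the 7 nuclei of lower segment PCs 2 (Pvr-act) without one are not drawn.

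Nuclei were also split by whether they held a hemocyte marker UMI, a split chosen after the data were seen. In lower segment PCs (Pvr-act), stg was at 30.6 CPM in the 1160 nuclei with such a UMI and at 9.68 in the 2235 without. In RSCs (Pvr-act) the values were 21.7 and 9.91, and in lower tubule PCs (Pvr-act) 15.6 and 10.5. CycB showed no such difference, with 3.60 and 4.06 in lower segment PCs (Pvr-act). In RSCs 2 (Pvr-act), stg was at 181 in the 215 nuclei with a hemocyte marker UMI and at 132 in the 475 without, where CycA (43.3) and CycB (48.3) were also high. Nuclei with a marker UMI were deeper, with medians of 3350 against 2538 UMIs in lower segment PCs (Pvr-act), and the part of depth in this split was not tested.

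Leaving out cell types changed the size of the mitotic ratio and not its direction. Without lower segment PCs 2 (Pvr-act) the log2 ratio of the mitotic sum between PCts > Pvr act and PCts > w1118 was 2.67, without RSCs 2 (Pvr-act) 2.76 and without both 2.48. Without every nucleus that held a hemocyte marker UMI it was 2.41. The other 3 Pvr-act types carried 94.9% of the UMIs of the library and 69.4% of its mitotic UMIs. Their mitotic levels lay within the interval of the types outside the MT, so the 2.48 is not read as a rise in expression above background. That interval rests on few UMIs, and the level over all nuclei of PCts > w1118 lay below it. It therefore cannot decide whether the 2.48 is such a rise. Of the UMIs of PCNA, 55.1% lay in lower tubule PCs (Pvr-act), which held 42.3% of all UMIs, and 25.4% in RSCs (Pvr-act), which held 18.9%. PCNA and stg were found together in 41 of the 257 nuclei with a PCNA UMI.

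Single nuclei rarely held more than 1 mitotic gene. In PCts > Pvr act, 84 of 9367 nuclei (0.897%, exact binomial 95% interval 0.716 to 1.11) had UMIs of at least 2 different mitotic genes. PCts > w1118 had 0 of 3015, which allows a share of up to 0.0995%. The share was 2.17% in RSCs 2 (Pvr-act) (15 of 690), 1.73% in lower tubule PCs (Pvr-act) (29 of 1681), and 0.356% (1 of 281) in the types outside the MT. The most frequent pairs were CycB with stg in 35 nuclei and CycA with stg in 31, whereas CycA with CycB was seen in 9 nuclei and CycB with Cdk1 in 3. After thinning each nucleus to 1000 UMIs, which left out 2104 nuclei of PCts > Pvr act and 1062 of PCts > w1118, 5 of 7263 nuclei of PCts > Pvr act (0.0688%) and 0 of 1953 of PCts > w1118 (up to 0.154%) remained, so a difference was not detectable at that depth. UMIs of at least 2 G1/S and endocycle genes were found in 15.2% of nuclei of PCts > Pvr act and 26.4% of PCts > w1118, and after thinning to 1000 UMIs in 2.73% and 3.99%.

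In Yki flies the mitotic genes were close to their control. Their sum was 6.70 CPM (114 UMIs), against 5.84 in EGT > w1118 (92 UMIs), a log2 ratio of 0.20 (95% interval -0.21 to 0.61), which turned to -0.30 with the mean over nuclei. stg had 36 UMIs (2.12 CPM) against 21 (1.33), a log2 ratio of 0.67 (-0.15 to 1.52), and CycB 68 (4.0) against 54 (3.43). CycA had 6 UMIs in each library and polo 2 in each. Cdk1 had 2 UMIs in EGT > yki act and 9 in EGT > w1118, 0.118 against 0.572 CPM (log2 ratio -2.28, -5.53 to -0.0099). None of the 6 members with at least 50 UMIs over both libraries differed by 1 or more on the log2 scale, where 10.2% of 8172 genes were higher and 6.61% lower by as much.

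PCNA was counted 28 times in EGT > yki act (1.65 CPM) and 7 times in EGT > w1118 (0.445), a log2 ratio of 1.89 (95% interval 0.66 to 3.33). Of the 28 UMIs, 14 lay in 170 nuclei annotated as lower tubule PCs (Pvr-act). This ratio turned round when the mean over nuclei replaced the pooled count, with -0.51 on the log2 scale. E2f1 was lower over all nuclei, with 512 CPM in EGT > yki act against 698 in EGT > w1118 (log2 ratio -0.45, -0.49 to -0.41), as were CycE (16.1 against 22.0, log2 ratio -0.45) and dup (6.76 against 9.15, log2 ratio -0.44). dap was level, with 40.5 against 42.0 (log2 ratio -0.050, -0.21 to 0.11).

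The E2f1 difference in Yki flies was smaller in the median cell type than over all nuclei. In the 12 types that had 20 or more nuclei in each library, E2f1 was lower in EGT > yki act in 8 and higher in 4, with a median log2 ratio of -0.16. The interval lay below 0 in 2 types. Lower tubule PCs had 545 CPM in EGT > yki act against 715 in EGT > w1118 (log2 ratio -0.39, -0.51 to -0.28), and initial and transitional PCs 679 against 908 (log2 ratio -0.42, -0.55 to -0.29). Main segment PCs were level, with 832 against 806. dap was higher in EGT > yki act in all 9 types with UMIs in both libraries, with a median log2 ratio of 0.39, although only 2 intervals lay above 0. With equal weight per cell type, the log2 ratio of the G1/S and endocycle sum was -0.082 in place of -0.42.

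**Figure D4:**
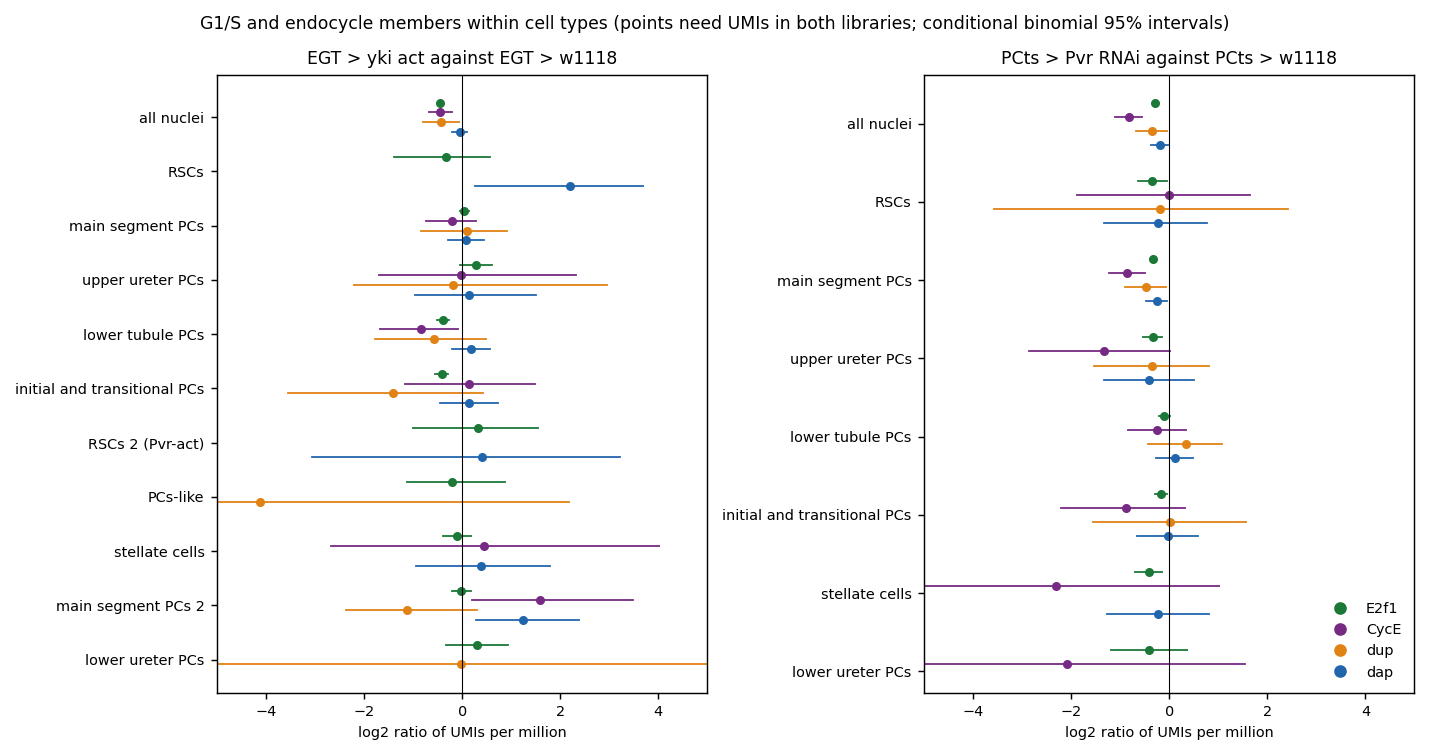
Log2 ratios of CPM for E2f1, CycE, dup and dap over all nuclei and within each MT cell type that has 20 or more nuclei in each library, for EGT > yki act against EGT > w1118 and for PCts > Pvr RNAi against PCts > w1118, with exact conditional binomial 95% intervals (some run past the axis). E2f1 lies below 0 in every cell type of the second comparison and on both sides of 0 in the first.

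The Pvr-act cell types also held nuclei of Yki flies, which allows values side by side at the same annotation. In lower tubule PCs (Pvr-act), stg stood at 13.2 CPM in PCts > Pvr act and at 2.63 (7 UMIs) in EGT > yki act. PCNA was at 12.4 in PCts > Pvr act and 5.27 in EGT > yki act there, and dap at 22.4 and 46.3. dap in EGT > yki act was thus near the 56.5 of its own lower tubule PCs. In lower segment PCs (Pvr-act), stg was at 18.5 in PCts > Pvr act and 8.84 (9 UMIs) in EGT > yki act, and CycE at 35.6 and 15.7. In PCts > Pvr act the levels of stg, PCNA, dap and CycE given here all lie within the 95% intervals of the types outside the MT of that library (for stg 6.11 to 27.9 CPM, for PCNA 0.428 to 12.8), and are not read as expression above background. Those intervals are wide, and lying within them does not show that expression is absent. The driver differs between these libraries along with the transgene, so that the 2 cannot be told apart.

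In the Pvr RNAi-labelled library, 4 of the 5 G1/S and endocycle genes had intervals below 0. E2f1 was at 652 CPM against 796 in PCts > w1118 (log2 ratio -0.29, 95% interval -0.33 to -0.25). CycE stood at 14.7 against 26.0 (log2 ratio -0.83, -1.11 to -0.55), dup at 12.3 against 15.8 (-0.36, -0.69 to -0.039) and dap at 46.5 against 53.4 (-0.20, -0.37 to -0.032). E2f1 was lower in all 7 types that could be compared, by a median of -0.34 on the log2 scale, with 5 intervals below 0. CycE had a ratio below 0 in all 7 as well, but only 1 interval lay below 0, and in RSCs it was level (log2 ratio -0.00065). The control libraries differed in the same way: E2f1 was lower in EGT > w1118 than in PCts > w1118 in all 11 shared types, by a median of -0.24. With EGT > w1118 as the reference, the sum of the 5 genes had a log2 ratio of -0.088 in place of -0.30. Of 7952 genes, 3.65% were higher and 3.61% lower by 1 or more between these control libraries, and none of the 5 members with at least 50 UMIs over both was. CycB was at 3.43 CPM in EGT > w1118 against 1.96 in PCts > w1118 (log2 ratio 0.81, 0.13 to 1.51), and dup at 9.15 against 15.8 (log2 ratio -0.78, -1.09 to -0.48).

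CycB was the most counted mitotic gene of this library. It had 55 UMIs in the Pvr RNAi-labelled library (5.49 CPM) against 29 in PCts > w1118 (1.96), a log2 ratio of 1.48 (95% interval 0.81 to 2.19). It was the only mitotic gene with at least 50 UMIs over both, and the only one of the 5 such members past a log2 ratio of 1, where 3.13% of 7627 genes were higher and 4.18% lower by as much. With 29 UMIs in PCts > w1118, CycB reached this minimum only through the Pvr RNAi-labelled library, so its place is not read as support. Over the other control library, EGT > w1118 (3.43 CPM), its log2 ratio was 0.68 and no longer past 1. In main segment PCs, 26 UMIs (4.98 CPM) stood against 2 in PCts > w1118 (0.272), a log2 ratio of 4.19 (2.20 to 7.31). EGT > w1118 had 16 there (2.42), a log2 ratio of 3.15 (1.06 to 6.32) over the same 2. stg had 25 UMIs (2.50) against 15 (1.01), and CycA 5 (0.499) against 16 (1.08). The mitotic sum was 9.08 against 4.53 (log2 ratio 1.00, 0.53 to 1.48), and the log2 ratio was 0.036 with the mean over nuclei.

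E2f1 and dap had a clear order across the cell types of the control library. In PCts > w1118, E2f1 was highest in main segment PCs 2 (927 CPM), initial and transitional PCs (915) and main segment PCs (909), which did not differ beyond counting error. Lower tubule PCs (767) and stellate cells (751) came next, also without a difference between them, followed by lower ureter PCs (455) with upper ureter PCs (443) and by RSCs (367) with PC-like cells (319), pairs whose intervals overlap. RSCs held 31 UMIs of dap (31.1 CPM) against 483 in main segment PCs (65.7). The order of E2f1 from main segment PCs over lower tubule PCs to RSCs was also found in EGT > w1118, with 806, 715 and 311. Median depth in PCts > w1118 was 10172 UMIs for main segment PCs 2, 9678 for main segment PCs and 10432 for lower tubule PCs. Initial and transitional PCs had 4891, upper ureter PCs 2806, lower ureter PCs 1499 and stellate cells 1387. RSCs (511) and PC-like cells (432) were the shallowest of these types and also had the lowest E2f1. Stellate cells were shallow too, but their E2f1 was close to that of lower tubule PCs. The part of depth in this order was not tested.

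**Figure D5:**
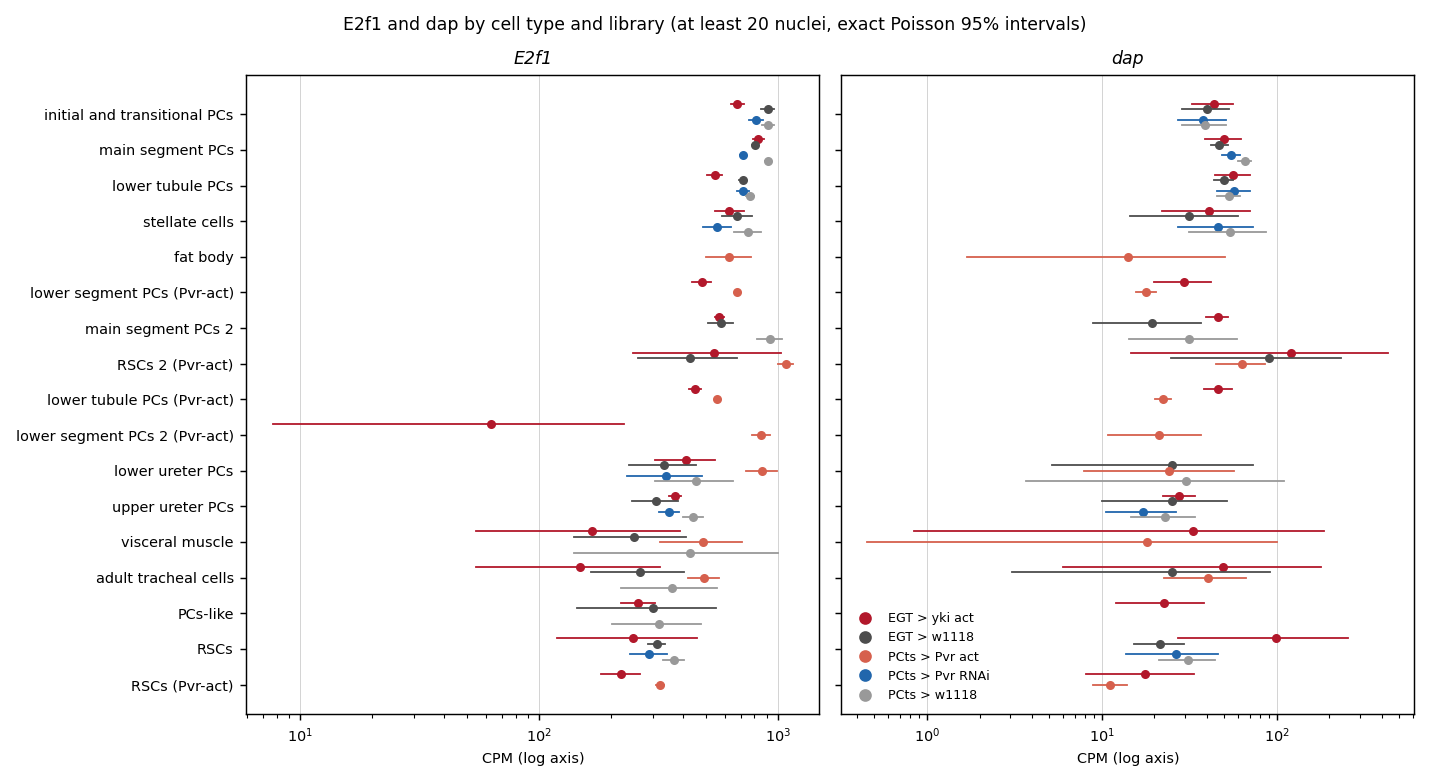
CPM (log axes) of E2f1 and dap by cell type, one point per library with at least 20 nuclei and at least 1 UMI, with exact Poisson 95% intervals. In PCts > w1118, E2f1 is at 367 in RSCs and 909 in main segment PCs, and in PCts > Pvr act, dap lies between 11.2 and 22.4 in the 4 Pvr-act types other than RSCs 2 (Pvr-act), where it is 63.4.

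Other genes of the cell cycle were taken from 4 lists with 106 genes, of which 103 were found. In PCts > Pvr act against PCts > w1118, 2 of 10 tested genes of G1/S control were higher by at least 1 on the log2 scale, as were 15 of 32 of origin licensing and replication, 11 of 19 of mitotic entry and exit, and 20 of 31 of spindle, kinetochore, condensin and cytokinesis. The background was the 29.8% given above. The median log2 ratios of the 4 lists were 0.73, 0.86, 1.06 and 1.93, beside 0.33 for all genes. Of the spindle list, 31 genes reached 50 UMIs here, but 12 for the Pvr RNAi-labelled library against PCts > w1118. Genes rare in PCts > w1118, among them aurA, Klp61F, feo, Mcm5 and Orc1 below, reached this minimum only through PCts > Pvr act. The counts and medians beside the background are therefore not read as support for a rise. Summed, the spindle list stood at 331 CPM over all nuclei of PCts > Pvr act and at 364 (316 to 418) in its types outside the MT. In PCts > w1118 it stood at 132 and 137 (72.7 to 234). For mitotic entry and exit the values were 464 and 359 in PCts > Pvr act, against 292 and 158. Both sums were thus also higher in types outside the MT, although the values of PCts > w1118 there rest on 13 and 15 UMIs. The mix of these types differed too, with 186 tracheal and 69 fat body nuclei in PCts > Pvr act against 61 and 9. In tracheal cells alone, the spindle list stood at 440 (375 to 513) against 144 (62.2 to 284). Mitotic entry and exit stood at 408 (345 to 478) against 126 (50.7 to 260) there. As counted, higher sums were not confined to MT nuclei. Mitotic kinases and spindle genes led: aurA, the Aurora A kinase of centrosomes, had 113 UMIs in PCts > Pvr act against 1 in PCts > w1118 (log2 ratio 5.41, 2.91 to 10.7). Klp61F, the kinesin that separates spindle poles, had 219 against 2 (log2 ratio 5.37, 3.50 to 8.42) and feo, a microtubule bundler of the central spindle, 228 against 3 (4.84, 3.28 to 7.13). Among replication genes, Mcm5 of the replicative helicase had 372 against 9 and Orc1 of the origin recognition complex 168 against 9. Myc, a growth regulator, was at 290.0 CPM against 111 (log2 ratio 1.39). Only Dp, the partner of E2F proteins (53.7 against 126), and Psf2, a subunit of the GINS complex (11 against 188), were lower by as much. With a minimum of 20 UMIs the background was 32.1% higher and 16.4% lower, with 1 UMI in each library 29.3% and 18.4%, and at a log2 ratio of 0.5 it was 44.2% and 24.6%.

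In PCts > Pvr act, the genes of these lists were also gathered in RSCs 2 (Pvr-act). That type was the highest of the 5 for 23 of 28 spindle genes, 23 of 30 replication genes, 7 of 17 genes of mitotic entry and exit and 6 of 9 of G1/S control, beside 26.7% of all genes. Lower segment PCs 2 (Pvr-act) were highest for 2, 0, 4 and 1 of them, beside 15.3% of all genes.

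In the other comparisons few list genes passed. In EGT > yki act against EGT > w1118, RnrL of ribonucleotide reductase (8.17 CPM against 1.97), Psf1, RPA1 and pbl, a gene needed for cytokinesis (763 UMIs against 107), were higher, and Cdk2 and Psf2 (83.5 against 245) lower, 6 of 59 genes tested, beside 10.2% higher and 6.61% lower among all genes. The background was 11.8% higher and 7.34% lower with a minimum of 20 UMIs, 14.1% and 9.64% with 1 UMI in each library, and 25.6% and 14.8% at a log2 ratio of 0.5. In the Pvr RNAi-labelled library, Psf1, RnrS and Wee1, the kinase that restrains Cdk1, were higher than in PCts > w1118, and PolA1 and pbl (20 UMIs against 94) lower, 5 of 51 tested, beside 3.13% higher and 4.18% lower among all genes. Its background under the same 3 looser limits was 3.46% and 6.44%, 5.99% and 9.64%, and 18% and 12.8%. pbl was at 95.6 in PCts > Pvr act against 6.36 in PCts > w1118.

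Genes with a pattern like that of a member were sought over 42 groups of cell type and library with at least 50 nuclei, by Pearson r of log2 (CPM + 10) among 9005 genes. These groups share libraries and depth, and the correlations are descriptions. E2f1 ran most like CG31635 (r = 0.92), tay (0.90) and Ehbp1 (0.89), and dap like enok (0.80). CycA ran most like Sox21a, a transcription factor of fly progenitor cells in the gut (0.90), rst (0.90) and asRNA:CR44381 (0.90), the last of which also led for Cdk1 (0.91), ahead of CG43187 (0.89) and CG10336 (0.89). CycB ran like BthD (0.84). polo ran like CG4570 (0.89), lncRNA:CR46216 (0.85) and feo (0.83). stg ran most like Sema2a (0.92), nAChRbeta3 (0.92) and Mp (0.92), but without the groups of PCts > Pvr act these values were 0.797, -0.17 and 0.63. For polo they were then 0.65 (CG4570), 0.19 (lncRNA:CR46216) and 0.70 (feo). With a constant of 1 in place of 10, values under 0.8 were those of BthD with CycB (0.69), asRNA:CR44381 (0.76) and CG10336 (0.76) with Cdk1, asRNA:CR44381 (0.79) and rst (0.78) with CycA, nAChRbeta3 with stg (0.78), and lncRNA:CR46216 (0.72) and feo (0.67) with polo. CycE, PCNA and dup had no gene at 0.8 or above with the constant of 10, although CG10395 reached 0.82 with CycE at a constant of 1.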

How the data were processed

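Per the labels and the study's methods, the authors counted UMIs with Cell Ranger 7.0.0 against the BDGP6 build, normalized them with Seurat, and clustered and annotated the nuclei of all libraries after Harmony had corrected the embedding. They deposited values on the natural log scale (of 1 plus the nucleus's UMI count scaled to a total of 10000) for 21371 nuclei in 17 cell types. Filters on nuclei and removal of doublets are not given in the sources used here. The study's text gives fewer nuclei for the EGT libraries than the table holds. After back-transformation each nucleus added up to 10000, and for 100% of nuclei all values were whole multiples of the smallest within 1e-06, so UMIs were recovered. Gene names came from Ensembl release 115 (BDGP6.54), which matched 16447 identifiers and left 48, esg among them.

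UMIs were summed per cell type and library with at least 20 nuclei. Intervals were 95% exact Poisson, Clopper-Pearson or conditional binomial. A count of 0 was given a limit of 3 counts. Genes were called past a log2 ratio of 1 with at least 50 UMIs over both libraries. Likeness used genes with at least 100 UMIs and log2 of the level plus 10. Named genes were the 10 members, up to 3 like genes each with r of at least 0.8, and up to 5 list genes per direction and comparison. The members and lists were chosen with earlier results of these data known. Ratios and intervals were tested on simulated data. The alternatives were pseudocounts, centring, cell type weights, nuclei left out, the other control library, depth thinning and other limits for calls. Alternatives that leave out small Pvr-act types, nuclei with hemocyte marker UMIs or shared barcode sequences were chosen after the data were seen. Depth ranged from 150 to 123301 UMIs per nucleus. Of the gene lists, 3 genes were not found. Python 3.11.15, numpy 2.4.6, scipy 1.17.1, pandas 2.3.3 and matplotlib 3.10.9 were used.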

Additional observations from a re-analysis of the deposited data

Results flagged for a closer look

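CycE differed in opposite directions between cell types of Yki flies. In main segment PCs 2 it was higher in EGT > yki act than in EGT > w1118 (26.0 against 8.64 CPM, from 106 and 4 UMIs), a log2 ratio of 1.59 with a 95% counting interval of 0.19 to 3.49. In lower tubule PCs it was lower (12.3 against 22.1, from 17 and 103 UMIs), a log2 ratio of -0.84 with an interval of -1.68 to -0.094. With 1 library per genotype, the difference between the cell types was not tested.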

How the results depend on the processing

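No paired analysis was possible because each genotype had 1 library. The log2 ratio of the mitotic sum between PCts > Pvr act and PCts > w1118 stayed above 0 under every alternative run. Of the mitotic UMIs of PCts > Pvr act, however, 69.4% lay in 3 types whose level was within the interval of the types outside the MT. It was 0.60, 1.67 and 2.14 with the mean over nuclei and a pseudocount of 1, of 0.1 and none, 1.37 with equal weight per cell type, 2.55 with the other control library, 1.71 without stg, and, with alternatives chosen after the data were seen, 2.48 without both small Pvr-act types and 2.41 without nuclei with a hemocyte marker UMI. The G1/S and endocycle sum of that comparison was 0.00018, 0.00020 and 0.00020 with the 3 means over nuclei, 0.60 with equal weight per cell type, -0.82 centred on the median gene, -0.28 with the other control library, -0.52 without both small types and -0.56 without nuclei with a hemocyte marker UMI. In EGT > yki act the mitotic sum was -0.30 with the mean and no pseudocount, and the G1/S and endocycle sum was -0.24, -0.29 and -0.29 with the 3 means, -0.082 with equal weight, -0.55 centred, -0.63 with the other control and -0.18 without E2f1. In the Pvr RNAi-labelled library the mitotic sum was 0.0055, 0.023 and 0.036 with the 3 means, and the other sum -0.0914, -0.10 and -0.11, then -0.0878 with the other control and -0.38 without E2f1. Directions turned for PCNA in EGT > yki act with the 3 means (-0.0086, -0.0745 and -0.51), for dap (1.45) and CycB (-1.81) in PCts > Pvr act with equal weight, for CycA in the Pvr RNAi-labelled library with the other control (0.39), and for the likeness of nAChRbeta3 to stg without PCts > Pvr act (-0.17). The share of nuclei of PCts > Pvr act with 2 mitotic genes was 0.0688% and 0.0641% after thinning to 1000 and 500 UMIs, and 0.573% without the 5% of nuclei with the most genes. List genes higher in EGT > yki act numbered 4 as reported, 13 with a minimum of 20 UMIs, 18 with 1 UMI in each library and 13 at a log2 ratio of 0.5, and genes lower 2 as reported and 10 with 1 UMI in each. In PCts > Pvr act 4 were lower at 0.5. In the Pvr RNAi-labelled library, 10 and 9 were higher with 1 UMI in each and at 0.5, against 3, and 4, 14 and 5 lower under the 3 alternatives, against 2. The cause of these changes was not tested. Cdk1 and polo, with 69 and 65 UMIs in all, and every ratio below about 10 UMIs are limited by counting.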

Other observations

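Genes of the spindle list were counted in RSCs 2 (Pvr-act) of 3 libraries. Their summed level was 1138 CPM in PCts > Pvr act (718 UMIs), 543 in EGT > yki act (9 UMIs) and 522 in EGT > w1118 (23 UMIs). RSCs of the usual annotation had 218 in PCts > w1118 and 155 in EGT > w1118. Within PCts > Pvr act, the types outside the MT stood at 364 and lower tubule PCs (Pvr-act) at 342. Lower segment PCs (Pvr-act) stood at 322, RSCs (Pvr-act) at 258 and lower segment PCs 2 (Pvr-act) at 246. The replication list had 632, 301 and 681 CPM in RSCs 2 (Pvr-act) of PCts > Pvr act, EGT > yki act and EGT > w1118.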
